A study of Mus musculus with 4 samples.

Results

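Collagens are the triple-helical proteins that build fibrils, basement membranes and other scaffolds of the extracellular matrix. The collagen genes measured here are the 42 genes, of 18193 with a named probe set, whose symbol has the collagen form (Col, a type number, a and a chain number). They comprise 11 fibrillar genes, 8 of basement membranes, 9 of the FACITs (fibril-associated collagens with interrupted triple helices, which sit on the surface of fibrils) and 14 others, and lie on 15 chromosomes. Of 44 collagen genes in RefSeq, Col28a1 and Col6a6 had no probe set of their own and are not analysed here.

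RNA of mouse embryos on a mixed C57BL/6J x ICR background was hybridised to 4 Affymetrix expression arrays. The 4 arrays hold heads of Hand2 mutants at E12.5 (E counts days of embryonic development), wild-type heads at E12.5, whole bodies of Hand2 mutants at E11.5 and wild-type whole bodies at E11.5. The mutants (Hand2 CAT/+; Wnt1-Cre, hereafter Hand2NC) carry a CAG-driven Hand2 transgene that is silent until Cre removes a floxed CAT cassette. Wnt1-Cre does so in the neural crest, the cells that give rise to most of the facial skeleton. Whether other cells of a head or a body also lost the cassette was not measured here. Wild-type littermates were the controls. RNA of several embryos was pooled, and each group is 1 array, so no difference below has a replicate check, an SD or a p-value.

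The second brightest Hand2 probe set had signals of 706 in Hand2NC heads and 33.4 in wild-type heads, and of 314 in Hand2NC bodies and 67.1 in wild-type bodies, in the direction the labels give, and the brightest Hand2 probe set gave log2 differences of only 0.50 at E12.5 and 0.04 at E11.5. The body label was borne out by 9 of 9 heart muscle markers and 8 of 8 liver markers at or above the array median on both E11.5 arrays, against 3 of 9 and 2 of 8 on both E12.5 arrays. The Y-linked gene Kdm5d had a signal of 8.72 on the Hand2NC head array and 677 on the wild-type head array, and of 535 and 578 on the Hand2NC and wild-type body arrays, so that the Hand2NC head pool lacked a Y-linked signal that the other 3 pools had. The 3′ to 5′ signal ratio of Actb, a check of RNA integrity, ranged between 1.36 and 1.48.

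A collagen chain is hydroxylated on proline and lysine and folded into its triple helix in the endoplasmic reticulum, with the help of chaperones, and is then secreted. Fibrillar chains lose their propeptides outside the cell and assemble into fibrils that lysyl oxidases cross-link, whereas type IV chains form the open network of basement membranes. In the embryonic head, mesenchyme and dermis make types I, III, V and VI, and the cartilage of the skull base and the lower jaw makes types II, IX and XI.

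Some collagen genes share a promoter or a locus. The sequences below are shown for Col4a2 because its promoter window overlaps that of Col4a1, which is not printed. They are shown for the type VI genes Col6a1, Col6a2 and Col6a3 because all 3 were higher in heads than in bodies. Each is the RefSeq stretch from 250 bases before to 50 after the start of the gene (GRCm38.p6), with 4 short motifs, on either strand, in capitals. These are the TATA box (TATAAA), the box bound by NF-Y (CCAAT), the GC box bound by Sp factors (GGGCGG) and an E box of the kind that basic helix-loop-helix factors bind (CATCTG). Col4a1 and Col4a2 are transcribed head to head on chromosome 8 from starts 21 bases apart, so that the Col4a2 window (chr8:11312555-11312854, plus strand) overlaps that of Col4a1 by 78 bases. Col6a1 (chr10:76725995-76726294, minus strand) and Col6a2 (chr10:76623355-76623654 and chr10:76623581-76623880, minus strand, for its 2 annotated starts) lie on the same strand of chromosome 10, and Col6a3 (chr1:90843922-90844221, minus strand) lies on chromosome 1.
Col4a2: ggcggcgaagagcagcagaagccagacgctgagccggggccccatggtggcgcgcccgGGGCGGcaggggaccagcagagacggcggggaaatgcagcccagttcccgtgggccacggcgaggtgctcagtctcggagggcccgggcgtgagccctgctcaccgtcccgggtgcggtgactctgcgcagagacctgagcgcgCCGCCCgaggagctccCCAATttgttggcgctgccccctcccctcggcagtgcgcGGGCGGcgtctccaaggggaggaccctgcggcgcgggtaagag
Col6a1: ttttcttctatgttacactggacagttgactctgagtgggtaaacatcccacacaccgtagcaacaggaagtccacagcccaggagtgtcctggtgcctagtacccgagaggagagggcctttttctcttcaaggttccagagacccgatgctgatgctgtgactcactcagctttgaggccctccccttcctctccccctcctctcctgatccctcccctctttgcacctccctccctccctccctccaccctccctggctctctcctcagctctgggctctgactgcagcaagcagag
Col6a2, first start: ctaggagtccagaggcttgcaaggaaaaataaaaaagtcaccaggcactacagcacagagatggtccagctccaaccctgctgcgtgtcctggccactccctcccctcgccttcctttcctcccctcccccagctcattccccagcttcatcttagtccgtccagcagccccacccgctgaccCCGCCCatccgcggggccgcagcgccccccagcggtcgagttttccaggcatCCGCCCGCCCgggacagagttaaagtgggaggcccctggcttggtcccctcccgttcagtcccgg
Col6a2, second start: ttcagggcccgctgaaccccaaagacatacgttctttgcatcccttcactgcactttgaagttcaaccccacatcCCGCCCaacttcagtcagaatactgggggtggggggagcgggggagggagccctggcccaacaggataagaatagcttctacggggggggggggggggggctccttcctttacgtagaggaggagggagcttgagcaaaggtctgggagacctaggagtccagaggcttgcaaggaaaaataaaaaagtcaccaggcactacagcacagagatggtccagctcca
Col6a3: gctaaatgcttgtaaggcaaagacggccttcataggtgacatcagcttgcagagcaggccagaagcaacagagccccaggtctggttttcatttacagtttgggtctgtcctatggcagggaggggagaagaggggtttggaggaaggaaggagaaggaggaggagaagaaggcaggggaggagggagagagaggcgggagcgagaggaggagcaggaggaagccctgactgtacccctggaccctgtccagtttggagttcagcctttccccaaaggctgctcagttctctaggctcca

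The Col4a2 window holds 3 GC boxes and 1 CCAAT box, 32 bases before the start. The first Col6a2 window holds 3 GC boxes, 2 of them overlapping, and the second holds 1, and none of the 4 motifs is in the Col6a1 and Col6a3 windows. Over 36 windows of the 33 collagen genes with a promoter in the RefSeq table, GGGCGG was found in 22 (61.1%), against 35.7% of 32851 windows of all genes. CCAAT was in 13 (36.1%, against 37.4%), TATAAA in 5 (13.9%, against 13.6%) and CATCTG in 3 (8.33%, those of Col3a1, Col4a5 and Col9a1, against 17.2%). These matches describe the letters in the windows and no binding. The basement membrane genes Col4a5 and Col4a6 are also head to head, on chromosome X, with starts 1343 bases apart and windows that do not overlap.

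Values are MAS5 signals scaled to a 2% trimmed mean of 500 on each array, and they are compared between arrays for 1 gene and never between genes, since each probe set has its own brightness. A gene was taken into a comparison when the brighter of the 2 arrays lay at or above its own median, which was 102, 106, 101 and 97.2 on the arrays of Hand2NC heads, wild-type heads, Hand2NC bodies and wild-type bodies. In all, 34 collagen genes passed in every comparison, and Col19a1 passed in all but that of heads at E12.5. The other 7 (Col4a3, Col4a4, Col5a3, Col6a4, Col6a5, Col10a1 and Col20a1) passed in none, with signals between 2.30 and 82.3 over the 4 arrays, and no fold is given for them. They include Col10a1, the collagen of hypertrophic cartilage, and the α3 and α4 chains of the kidney-type basement membrane.

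**Figure D1:**
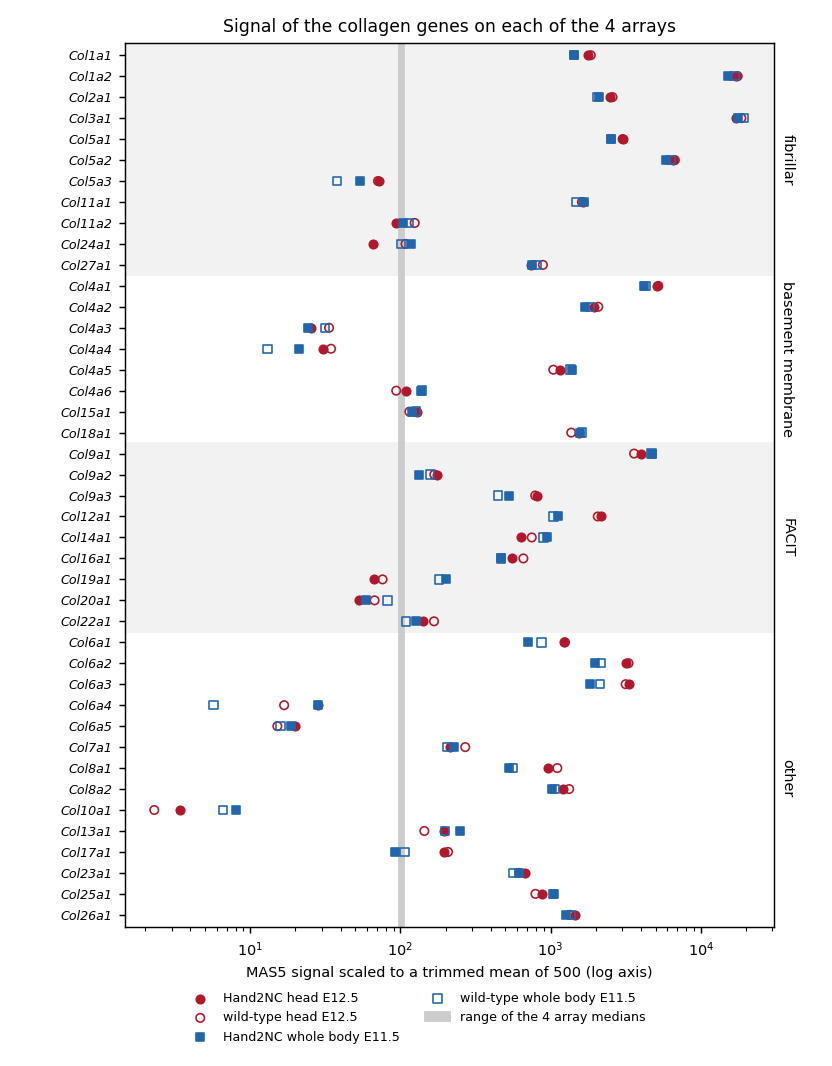
Scaled MAS5 signal (log axis) of each of the 42 collagen genes, by class, on the 4 arrays: red circles for E12.5 heads and blue squares for E11.5 bodies, filled for Hand2NC and open for wild-type. The grey band spans the 4 array medians. The 4 symbols of most genes lie close together, those of Col12a1, Col8a1, Col17a1 and the Col6a1 to Col6a3 genes are further right in both heads, and those of Col19a1 are further left in both heads.

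In E12.5 heads, the collagen genes of Hand2NC embryos were close to those of wild-type embryos. At least 1.3-fold, Col13a1 was higher in Hand2NC heads and Col11a2 and Col24a1 were lower, 1 and 2 of 34 genes, where 3.74% of all 11815 genes tested were higher and 4.97% lower. At least 2-fold, no collagen gene differed, where 0.203% of all genes were higher and 0.195% lower. The median log2 difference (Hand2NC over wild-type) was -0.03 over the collagen genes and 0.00 over all genes. As a scale, each gene was given a local spread, a robust SD of log2 differences among the 500 genes with the most similar mean signal, in which noise and real differences are mixed. By more than this spread, 5 collagen genes were higher in Hand2NC heads and 9 lower, where 16.9% and 16.2% of all genes were. In these bulk samples, fewer cells of a type and less RNA per cell cannot be told apart. The Hand2NC head pool also lacked the Y-linked signal of the wild-type head pool, so genotype and the sex of the embryos cannot be told apart for any gene here.

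Of the fibrillar collagens, the major chains were within 1.3-fold between the heads by the probe sets used. Col1a1 and Col1a2, the chains of type I collagen of skin, tendon and bone, had signals of 1768 and 17055 in Hand2NC heads and 1851 and 17613 in wild-type heads (log2 -0.07 and -0.05). Col3a1, the type III chain of loose connective tissue, had 17235 in Hand2NC heads and 18631 in wild-type heads (-0.11). Col5a1 and Col5a2, the chains of type V collagen that nucleates type I fibrils, had log2 differences of 0.00 and -0.05. Each of these differences was at most 0.11 in size on the log2 scale. Among other probe sets that passed, a dimmer one of Col5a1 went past 1.3-fold (-0.57) and that of Col1a1 gave -0.31. Those of Col3a1 and Col5a2 gave 0.08 and 0.11. For Col2a1, the main collagen of cartilage, the signals were 2475 in Hand2NC heads and 2584 in wild-type heads (-0.06), and for Col11a1, which makes type XI collagen with Col2a1 and Col11a2 chains, 1649 and 1618 (0.03).

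Lower in Hand2NC heads by more than the local spread were 4 of 10 fibrillar genes, where 16.2% of all genes were, namely Col3a1 (spread 0.07), Col11a2, Col24a1 and Col27a1, and 0 were higher by more than it. Col24a1, a minor fibrillar chain known from developing bone, had signals of 65.8 in Hand2NC heads and 108 in wild-type heads, a log2 difference of -0.72 against a local spread of 0.51. Col11a2, a cartilage chain, had 93.3 in Hand2NC heads and 125 in wild-type heads (-0.42, spread 0.37). For both genes the lower signal lay under the array median, so both calls rest on a dim signal, and neither was kept when both arrays had to reach their median or when dim signals were raised to it. Col27a1, a fibrillar collagen of cartilage, had 742 in Hand2NC heads and 889 in wild-type heads (-0.26, spread 0.14), and its second probe set gave -0.08. In total 2 of 10 fibrillar genes were above 0, where 6018 of all 11815 genes were, and the class median was -0.06. Of 10 cartilage markers 7 passed, with none past 1.3-fold and a median of 0.04. The summed signal of all 10 was 4423 in Hand2NC heads and 4458 in wild-type heads. The only osteoblast marker of 4 that passed, Sp7, had 100 in Hand2NC heads and 137 in wild-type heads (-0.45, spread 0.40). Its lower signal lay under the array median, so this value too rests on a dim signal. Alpl, Ibsp and Dmp1 did not pass, and their differences (0.01, 0.89 and 0.95) were above 0. The part of cartilage or bone cells in these values was not tested.

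Of the basement membrane collagens, none differed 1.3-fold. The ubiquitous pair Col4a1 and Col4a2 had 5137 and 1946 in Hand2NC heads, against 5219 and 2079 in wild-type heads, log2 differences of -0.02 and -0.10. The other 4 genes were above 0, Col4a5 at 0.16, Col4a6 at 0.21, Col15a1 at 0.16 and Col18a1, the source of endostatin, at 0.16, so that the class median was 0.16. Of these, Col4a5 and Col18a1 were higher by more than their local spread (0.13 and 0.12). A second Col4a5 probe set had 299 in Hand2NC heads and 333 in wild-type heads (-0.16), the opposite direction, and a second Col18a1 probe set gave 0.08. The direction of the class depends on the probe set: averaging each gene's probe sets gave a class median of 0.00, and the second brightest probe sets gave -0.16. Col4a6 had 108 in Hand2NC heads and 93.8 in wild-type heads by its brightest probe set, and 61.5 and 115 by its other one (log2 -0.91). Col4a5 and Col4a6 are on the X chromosome, as is Xist, which had 16187 in Hand2NC heads and 8988 in wild-type heads, and the part of sex in these values was not tested. Of 10 endothelial markers 9 passed, with a median of 0.10. Emcn (0.40) was at least 1.3-fold higher in Hand2NC heads and Flt1 (-0.58) lower, where 3.74% and 4.97% of all genes were. By more than the local spread 2 were higher and 2 lower, where 16.9% and 16.2% of all genes were. The summed signal of all 10 was 4399 in Hand2NC heads and 4104 in wild-type heads. The part of these markers was not tested either.

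Of the FACITs, 4 of 7 were above 0, where 6018 of all 11815 genes were, and none differed 1.3-fold, with a median of 0.04. Col9a1, Col9a2 and Col9a3, the 3 chains of cartilage type IX collagen, gave 0.15, 0.06 and 0.04. Col12a1, which coats type I fibrils, had 2171 in Hand2NC heads and 2062 in wild-type heads (0.07). By more than the local spread, Col9a1 was higher in Hand2NC heads (spread 0.09) and 2 FACITs were lower. These were Col14a1 (636 in Hand2NC heads, 749.6 in wild-type heads, -0.24), a FACIT of dermis and tendon, and Col16a1 (555 in Hand2NC heads, 659 in wild-type heads, -0.25). A second Col14a1 probe set gave -0.05. Col22a1, of tissue junctions such as that of muscle and tendon, had 141 in Hand2NC heads and 168 in wild-type heads (-0.24), and another of its probe sets gave 0.46, the opposite direction.

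Among the other collagens, Col13a1 was the 1 gene past 1.3-fold in Hand2NC heads. This transmembrane collagen of cell adhesion sites and neuromuscular junctions had 194 in Hand2NC heads and 144 in wild-type heads, a log2 difference of 0.42 against a local spread of 0.25, and it has a single probe set. At E11.5 it had 248 in Hand2NC bodies and 199 in wild-type bodies (0.32, spread 0.29). It was thus the highest collagen gene of both stages and on the same side in both, without passing 1.3-fold at E11.5. Skeletal muscle markers had a median of 0.14 in heads and 0.16 in bodies, with 5 of 9 above 0 in heads and 9 of 9 in bodies. Of all genes, 6018 of 11815 in heads and 5616 of 11886 in bodies were above 0. At least 1.3-fold in heads, Myf5 was higher (1.13) and Des lower (-0.51), where 3.74% and 4.97% of all genes were. In bodies both were higher (1.13 and 0.43), where 4.67% of all genes were. The wild-type head signal of Myf5 (81.2) lay under the array median. The summed signals of the list were 9256 in Hand2NC heads and 8653 in wild-type heads, and 16139 in Hand2NC bodies and 15175 in wild-type bodies. These sums rest largely on 1 gene, Actc1, with 4841 and 4155 in Hand2NC and wild-type heads, and 9367 and 9362 in Hand2NC and wild-type bodies. The part of these markers in the Col13a1 values was not tested.

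The remaining transmembrane genes gave -0.09 (Col17a1, of the hemidesmosomes that tie epithelium to its basement membrane), 0.14 (Col23a1) and 0.13 (Col25a1, needed by motor neurons to innervate muscle). Col8a1 gave -0.20, Col8a2 -0.13 and Col26a1 0.12. Col7a1, the anchoring fibrils under stratified epithelium, had 213 in Hand2NC heads and 270.2 in wild-type heads (-0.34, spread 0.25). Among 9 epithelial markers, all of which passed, the keratins of basal epithelium Krt14 (-0.46) and Krt5 (-0.39) were lower in Hand2NC heads, while Krt19 (0.29), Krt8 (0.22) and Epcam (0.08) were above 0, and 2 were higher and 2 lower by more than the local spread. The median of the list was -0.05, with summed signals of 6098 in Hand2NC heads and 6474 in wild-type heads. Their part in the Col7a1 value was not tested. The type VI genes that passed, whose product forms beaded filaments around cells, were close between the heads, at -0.01 (Col6a1), -0.06 (Col6a2) and 0.08 (Col6a3). Neuronal markers were below 0 in 10 of 10 cases, where 5797 of all 11815 genes were. They had a median of -0.15 and summed signals of 45589 in Hand2NC heads and 50354 in wild-type heads.

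In E11.5 bodies, no collagen gene differed 1.3-fold between Hand2NC and wild-type embryos, of 35 tested, where 4.67% of all 11886 genes were higher and 4.16% lower. At least 2-fold, 0.177% of all genes were higher and 0.269% lower. The collagen genes ran between -0.30 (Col6a1) and 0.32 (Col13a1), with a median of -0.03 against -0.01 over all genes. By more than the local spread, 3 were higher in Hand2NC bodies (Col9a3, Col11a1 and Col13a1) and 5 lower (Col1a2, Col3a1, Col6a1, Col6a2 and Col6a3), where 16.1% and 17.2% of all genes were.

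The 3 type VI genes that passed were together below 0 in Hand2NC bodies. Col6a1 had 707 in Hand2NC bodies and 871 in wild-type bodies (-0.30, spread 0.14), Col6a2 had 1971 and 2168 (-0.14, spread 0.11), and Col6a3 had 1836 and 2127 (-0.21, spread 0.11). A second Col6a2 probe set gave -0.38. Each of the 4 probe sets was thus lower in Hand2NC bodies, by less than 1.3-fold, and the same genes were within 0.08 of 0 on the log2 scale in heads a day later. Of the chains of types I and III, Col1a2 was at -0.15 with 15139 in Hand2NC bodies and 16753 in wild-type bodies, and Col3a1 at -0.14 with 17653 and 19486, but at -0.02 by a second probe set. Col1a1 was at 0.00. Markers of meninges and dermis, of which 7 of 8 passed, had a median of 0.04 in the same comparison. Dkk2 alone was past 1.3-fold (0.45), 1 of 7, where 4.67% of all genes were higher. The summed signals of all 8 were 14528 in Hand2NC bodies and 13622 in wild-type bodies.

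The cartilage genes of E11.5 bodies did not move as a group. Col9a3 had 527 in Hand2NC bodies and 446 in wild-type bodies (0.24), with 0.51 by a second probe set, Col9a2 gave -0.24 and Col9a1 0.01. Col11a1 gave 0.17, Col11a2 -0.14 and Col2a1 0.05. Of 10 cartilage markers 7 passed, with a median of 0.02, and Matn1 alone passed 1.3-fold, with 108 in Hand2NC bodies and 56.2 in wild-type bodies. The lower signal is under the array median, so this value rests on a dim signal. That is 1 of 7, where 4.67% of all genes were higher in bodies. Class medians were -0.05 for fibrillar genes, -0.04 for basement membrane genes, 0.08 for FACITs and -0.09 for the others.

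Across the stages, which share no array, 0 collagen genes passed 1.3-fold in the same direction, where 0.367% of 11453 genes tested at both were higher and 0.48% lower, and none passed 2-fold, where 0.00873% were higher and 0.00873% lower. The log2 differences had the same sign at both stages in 23 of 34 collagen genes (67.6%), against 47.6% of all genes. Most of these differences are small, and across the 34 genes the differences at E12.5 and E11.5 had a Pearson r of -0.01 and a Spearman rho of 0.08, given as a description, since genes are not independent samples.

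**Figure D2:**
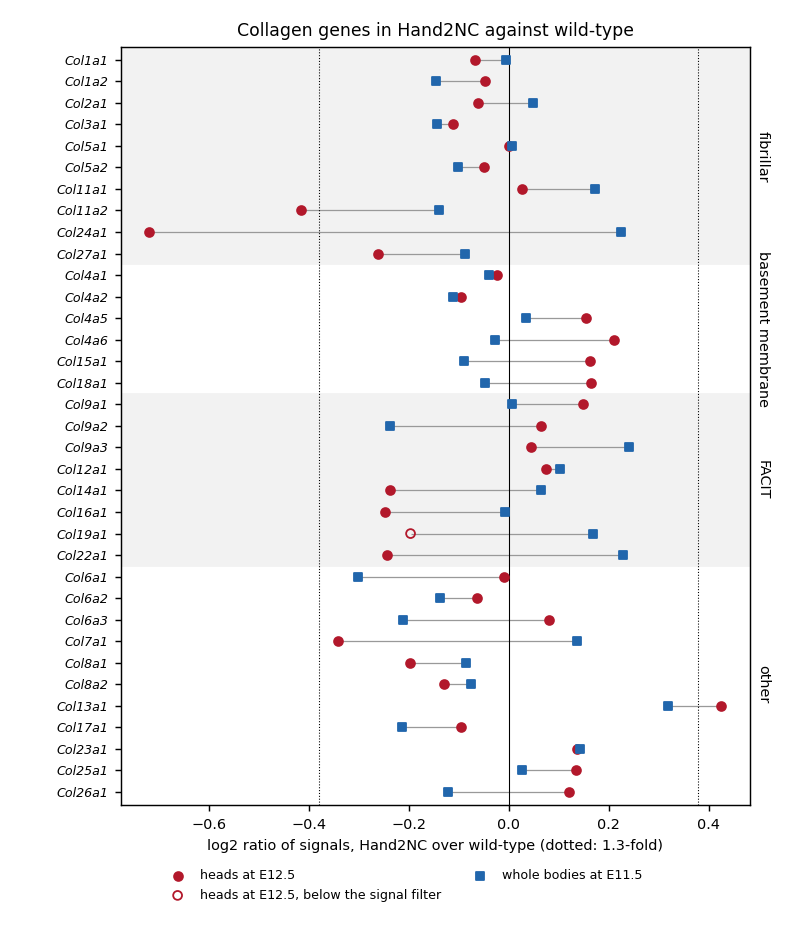
Log2 ratio of signals, Hand2NC over wild-type, for each collagen gene that passed the signal filter, in E12.5 heads (red circles, open for Col19a1, which did not pass at E12.5) and E11.5 whole bodies (blue squares), each 1 array against 1 array. Dotted lines mark 1.3-fold; Col13a1 in heads lies right of them, Col11a2 and Col24a1 in heads lie left, and no gene lies outside them in bodies.

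E12.5 heads differed from E11.5 bodies more than the genotypes differed from each other. Stage and tissue cannot be told apart in this comparison, which was made within each genotype on separate arrays. Within Hand2NC the pools also differed in Y-linked signal, with Kdm5d at 8.72 in heads and 535 in bodies. In wild-type Kdm5d had 677 in heads and 578 in bodies. The part of sex in these values was not tested. At least 1.3-fold in both genotypes, 7 of 35 collagen genes (20%) were higher in the head, where 12.7% of all 11803 genes tested were: Col6a1, Col6a2, Col6a3, Col8a1, Col9a3, Col12a1 and Col17a1. With the second brightest probe set, which 18 genes passing the filter have, 4 were higher. Only Col19a1, 1 gene (2.86%), was lower, where 7.13% of all genes were. At least 2-fold in both genotypes, 0 were higher and Col19a1 was lower, where 1.91% and 1.72% of all genes were. Within Hand2NC, 8 genes were at least 1.3-fold higher in the head and 3 lower, where 18.1% and 11.6% of all genes were, and within wild-type 10 were higher and 6 lower, where 21.1% and 15% were. At least 2-fold, Col17a1 was higher and Col19a1 lower within Hand2NC, where 2.87% and 2.24% of all genes were, and within wild-type 0 were higher and Col19a1 was lower, where 4.45% and 2.61% were. By more than the local spread, 10 collagen genes were higher and 2 lower within Hand2NC, where 19.4% and 14% of all genes were, and 11 were higher and 4 lower within wild-type, where 18.9% and 14.6% were. The median log2 difference (head over body) was 0.15 in Hand2NC and 0.14 in wild-type, against 0.04 and 0.03 over all genes. These values use the arrays of the comparisons between genotypes and are not independent of them.

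Type VI collagen was higher in heads by the 3 genes that passed. Col6a1 had 1238 and 1246 in Hand2NC and wild-type heads, against 707 and 871 in Hand2NC and wild-type bodies, log2 differences of 0.81 in Hand2NC and 0.52 in wild-type. Col6a2 had 3162 and 3304 in Hand2NC and wild-type heads, against 1971 and 2168 in Hand2NC and wild-type bodies (0.68 and 0.61). Col6a3 had 3341 and 3162 in Hand2NC and wild-type heads, against 1836 and 2127 in Hand2NC and wild-type bodies (0.86 and 0.57). Both heads exceeded both bodies for each gene, and the second Col6a2 probe set gave 0.74 and 0.46. The differences were above the local spread of each gene in both genotypes. Their promoter windows printed above have no motif in common among the 4 searched. Col6a1 and Col6a2 share chromosome 10, and Col6a3 lies elsewhere.

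The FACIT Col12a1 and, among the other collagens, Col8a1 and Col17a1 were also higher in heads in both genotypes. Col12a1 had 2171 and 2062 in Hand2NC and wild-type heads, against 1121 and 1043 in Hand2NC and wild-type bodies, close to 2-fold in both genotypes (0.95 and 0.98), and 0.56 and 0.86 by its second probe set. Col8a1, a short-chain collagen of networks under endothelium, had 968 and 1109 in Hand2NC and wild-type heads, against 531 and 564 in Hand2NC and wild-type bodies (0.86 and 0.98), with 0.69 and 1.29 by a second probe set. Its partner chain Col8a2 gave 0.25 and 0.31. Col17a1 had 194 and 208 in Hand2NC and wild-type heads, against 92.0 and 107 in Hand2NC and wild-type bodies (1.08 and 0.96), so that heads lay above the array medians and Hand2NC bodies below. Epithelial markers had medians of 0.19 in Hand2NC and 0.13 in wild-type in the same comparison, with summed signals of 6098 and 6474 in Hand2NC and wild-type heads, against 5679 and 6108 in Hand2NC and wild-type bodies, and their part in the Col17a1 values was not tested.

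Among the cartilage collagens the 3 chains of type IX went apart. Col9a3 had 815 and 790.1 in Hand2NC and wild-type heads, against 527 and 446 in Hand2NC and wild-type bodies (0.63 and 0.82), with 0.70 and 1.19 by a second probe set. Col9a2 gave 0.40 in Hand2NC and 0.09 in wild-type. Col9a1 had 3986 and 3598 in Hand2NC and wild-type heads, against 4717 and 4693 in Hand2NC and wild-type bodies (-0.24 and -0.38), so that both heads lay below both bodies. Col9a1 is also made outside cartilage, in the eye for example. Col2a1 gave 0.23 and 0.34, Col11a1 -0.02 and 0.13, and Col11a2 -0.15 and 0.13. Cartilage markers had medians of 0.40 in Hand2NC and 0.43 in wild-type. Of all genes, 6588 of 11990 in Hand2NC and 6320 of 12061 in wild-type were above 0, and 6 of the 7 cartilage markers that passed were in each genotype. Among them were Cnmd (0.69 and 0.67) and Sox5 (0.58 and 0.65), while Hapln1 went the other way (-0.17 and -0.46, spread 0.40 in wild-type). The summed signals of all 10 cartilage markers, passing or not, were 4423 and 4458 in Hand2NC and wild-type heads, against 3575 and 3426 in Hand2NC and wild-type bodies.

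Col19a1 was the collagen gene furthest below 0. This FACIT, known from embryonic muscle and from nerve terminals, had 66.4 and 76.1 in Hand2NC and wild-type heads, against 203 and 180.2 in Hand2NC and wild-type bodies, 3.05-fold lower in Hand2NC heads than in Hand2NC bodies and 2.37-fold lower in wild-type heads than in wild-type bodies (-1.61 and -1.24). Both head signals lay below the array medians, where MAS5 signals are imprecise, and a second probe set gave -1.09 and -1.03. With dim signals raised to the array median Col19a1 gave -0.99 in Hand2NC, and its 2-fold call was lost. Skeletal muscle markers, all 9 of which passed, were below 0 in 8 of 9 cases in each genotype, Myh8 being the exception (0.52 and 0.55). Of all genes, 5402 of 11990 in Hand2NC and 5741 of 12061 in wild-type were below 0. Myf5 was at least 2-fold lower in both genotypes (-1.25 and -1.24), where 1.72% of all genes were. The list had medians of -0.78 in Hand2NC and -0.45 in wild-type. Its summed signals were 9256 and 8653 in Hand2NC and wild-type heads, against 16139 and 15175 in Hand2NC and wild-type bodies. The sums rest largely on Actc1, with 4841 and 4155 in Hand2NC and wild-type heads, against 9367 and 9362 in Hand2NC and wild-type bodies. Bodies also hold the heart, and the part of heart muscle in the Actc1 signal was not tested. The part of the skeletal muscle markers in the Col19a1 values was not tested either. Col14a1 gave -0.56 and -0.26, but -0.05 and 0.18 by a second probe set. Col13a1 gave -0.36 and -0.46. Col25a1 gave -0.28 and -0.39, but averaging its probe sets, the other of which did not pass the filter, turned the wild-type value to 0.49. At least 1.3-fold higher in the head in wild-type but not in Hand2NC were Col16a1 (0.25 in Hand2NC, 0.49 in wild-type), Col22a1 (0.15 and 0.62) and Col7a1 (-0.08 and 0.40). At least 1.3-fold lower in wild-type but not in Hand2NC were Col13a1, Col25a1, Col4a5, Col4a6 and Col9a1. The difference between the genotypes was not tested. Col18a1 gave -0.02 and -0.23, Col15a1 0.11 and -0.14, Col23a1 0.13 and 0.14, and Col26a1 0.21 and -0.03.

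By the probe sets used, the main fibrillar chains and the ubiquitous type IV chains stayed within 1.3-fold. Other probe sets that passed went past it, with 0.51 for Col4a1 in Hand2NC, 0.39 for Col1a1 in wild-type and 0.76 for Col5a1 in wild-type. Col1a1 had 1768 and 1851 in Hand2NC and wild-type heads, against 1424 and 1428 in Hand2NC and wild-type bodies (0.31 and 0.37), and Col1a2 gave 0.17 and 0.07, Col3a1 -0.03 and -0.06, Col5a1 0.25 and 0.26, and Col5a2 0.15 and 0.09. In wild-type 9 of 10 fibrillar genes were above 0, and in Hand2NC 5 of 10. Of all genes, 6320 of 12061 in wild-type and 6588 of 11990 in Hand2NC were above 0. Col24a1 was the gene with the widest gap between the genotypes, at -0.85 in Hand2NC and 0.10 in wild-type, its signal being lowest in Hand2NC heads. The pair with a shared promoter gave 0.30 and 0.28 for Col4a1 and 0.20 and 0.18 for Col4a2. The X-linked pair lay on the other side, with -0.26 and -0.38 for Col4a5 and -0.33 and -0.57 for Col4a6, although a second Col4a6 probe set gave 0.49 in wild-type. Class medians in Hand2NC and in wild-type were 0.06 and 0.13 for fibrillar genes, 0.04 and -0.19 for basement membrane genes, 0.20 and 0.29 for FACITs, and 0.25 and 0.40 for the others.

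Over the 35 genes, the head over body differences had the same sign in both genotypes in 28 (80%), 19 above and 9 below 0, against 78.3% of all genes. Across these genes they had a Pearson r of 0.87 and a Spearman rho of 0.83, against 0.83 and 0.74 across all genes, given as a description. Bodies hold organs that heads lack: in heads over bodies, heart muscle markers had medians of -3.26 in Hand2NC and -3.52 in wild-type, and liver markers of -5.04 and -6.13, while neuronal markers had 0.89 and 1.05. The part of these tissues in the collagen values was not tested.

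**Figure D3:**
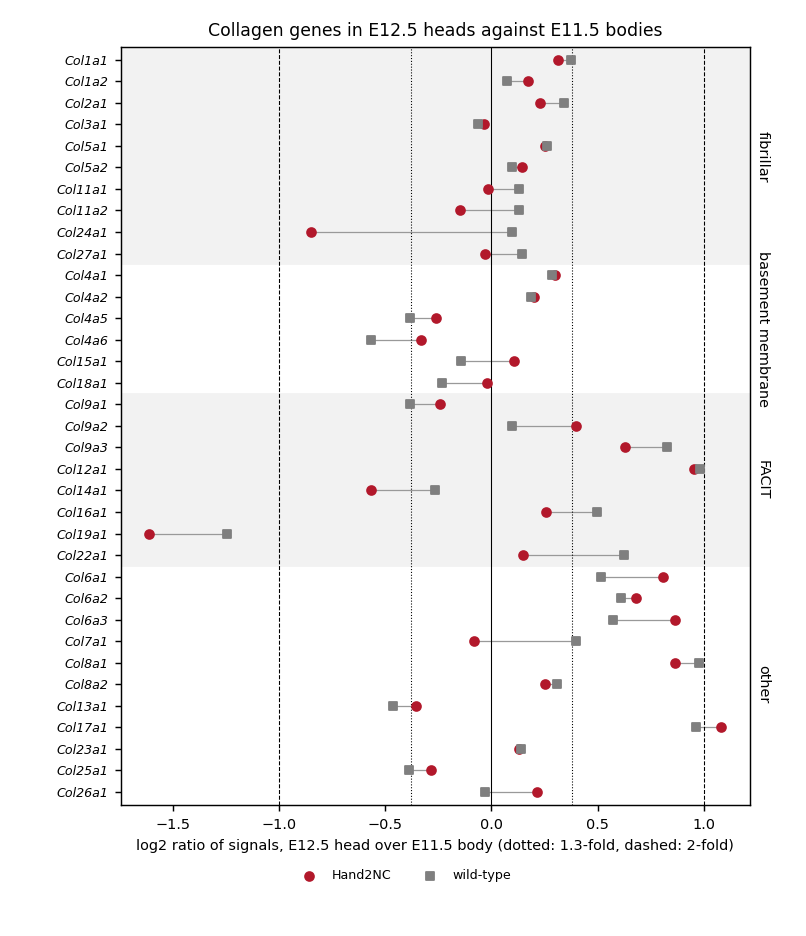
Log2 ratio of signals, E12.5 head over E11.5 whole body, within Hand2NC (red circles) and within wild-type (grey squares), for each collagen gene that passed the signal filter, each 1 array against 1 array. Dotted lines mark 1.3-fold and dashed lines 2-fold; Col6a1, Col6a2, Col6a3, Col8a1, Col9a3, Col12a1 and Col17a1 lie right of 1.3-fold in both genotypes and Col19a1 lies left of 2-fold in both.

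The genes that modify, process and bind collagens were described alongside. Of 21 genes of collagen hydroxylation and chaperones, Plod2 was at least 1.3-fold higher in Hand2NC heads and Colgalt2 and Creb3l1 were lower, 1 and 2 genes, where 3.74% and 4.97% of all genes were. Plod2, the lysyl hydroxylase of collagen telopeptides, had 977 in Hand2NC heads and 562 in wild-type heads (0.80), and 1638 in Hand2NC bodies and 1754 in wild-type bodies (-0.10). Both heads lay below both bodies, with head over body differences of -0.75 in Hand2NC and -1.64 in wild-type. Colgalt2, a collagen galactosyltransferase, had 48.3 in Hand2NC heads and 132 in wild-type heads (-1.46), and 115 in Hand2NC bodies and 91.8 in wild-type bodies (0.32). Creb3l1, a factor that activates Col1a1 in osteoblasts, had 71.9 in Hand2NC heads and 141 in wild-type heads (-0.97). The lower signals of the last 2 genes are under the array median. In bodies, only Tmem38b, an ion channel of the endoplasmic reticulum that collagen secretion in bone depends on, passed 1.3-fold, with 366 in Hand2NC bodies and 279 in wild-type bodies (0.39). That is 1 of 21, where 4.67% of all genes were higher in bodies. The list medians were 0.00 in heads and -0.04 in bodies.

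Of 10 genes of propeptide processing and cross-linking, 7 passed and none differed 1.3-fold between genotypes at either stage, with medians of -0.07 in heads and 0.04 in bodies. Lox, the lysyl oxidase that cross-links fibrils, had 2084 and 2183 in Hand2NC and wild-type heads, against 1269.8 and 1384 in Hand2NC and wild-type bodies (0.72 and 0.66), and Pcolce, the enhancer of propeptide removal, went the other way (-0.54 and -0.51). Of 13 fibril-associated genes, 12 passed in heads and 11 in bodies, and Prelp alone was past 1.3-fold between genotypes, lower in Hand2NC heads, with 93.9 in Hand2NC heads and 123 in wild-type heads (-0.39), the lower signal being under the array median. That is 1 of 12, where 4.97% of all genes were lower in heads. The list was below 0 in 10 of 12 cases in heads and in 8 of 11 in bodies, with medians of -0.08 and -0.10. Of all genes, 5797 of 11815 in heads and 6270 of 11886 in bodies were below 0. Bgn, a proteoglycan that binds fibrils and type VI filaments, had 2496 and 2669 in Hand2NC and wild-type heads, against 1534 and 1511 in Hand2NC and wild-type bodies (0.70 and 0.82), while Fmod (-0.54 and -0.69) and Kera (-0.58 and -0.54) were lower in heads. The 4 collagen receptors that passed were within 1.3-fold between genotypes, with Ddr1, which binds fibrillar and type IV collagen, at -0.10 in heads and 0.27 in bodies.

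Of 15 basement membrane partners, Lamc3 was at least 1.3-fold lower in Hand2NC heads, with 80.6 in Hand2NC heads and 139 in wild-type heads (-0.78, the lower signal under the array median), and Lama2 was lower in Hand2NC bodies, with 450.3 in Hand2NC bodies and 602 in wild-type bodies (-0.42). Lama2 had 609 in Hand2NC heads and 498 in wild-type heads (0.29), the opposite direction. These are 1 of 14 in heads and 1 of 13 in bodies, where 4.97% and 4.16% of all genes were lower. Medians were -0.09 in heads and -0.05 in bodies. The nidogens and perlecan, which join laminin to type IV collagen, gave -0.07 (Nid1), -0.01 (Nid2) and -0.10 (Hspg2) in heads.

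**Figure D4:**
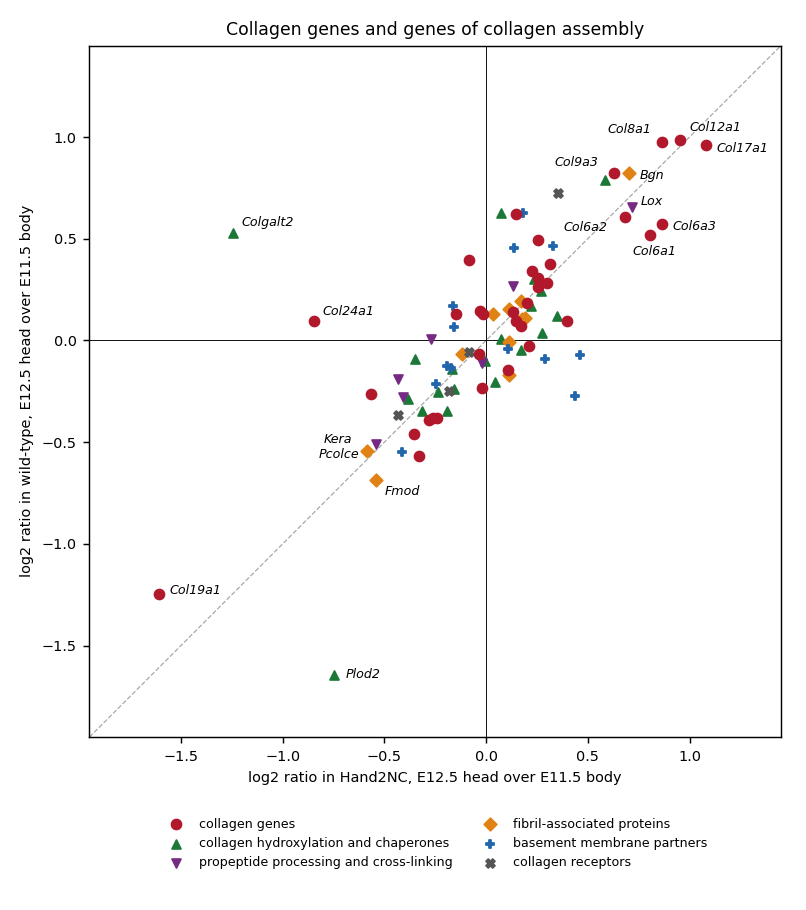
Log2 ratio of signals, E12.5 head over E11.5 whole body, in Hand2NC (horizontal axis) and wild-type (vertical axis), for collagen genes (red circles) and 5 lists of collagen assembly, binding and basement membrane genes (other symbols), where both comparisons passed the signal filter. The dashed line marks equal ratios. Lox and Bgn lie at the upper right with Col6a1 to Col6a3, Col8a1, Col9a3, Col12a1 and Col17a1, Col19a1 lies at the lower left, and Colgalt2 and Col24a1 lie above the line.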

How the data were processed

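Gene expression was measured with Affymetrix whole-genome mouse arrays, 1 colour and 1 array of pooled RNA for each of 4 groups. The deposited intensity values, linear and with 1 signal per probe set, were produced by the authors' MAS5 run (version not stated in the processing notes). MAS5 signals of dim probe sets are imprecise, and precision is limited by the small number of arrays. Of 45101 probe sets, 64 controls were left out. Each array's 2% trimmed mean was set to 500 before log2 values were formed. Probe sets took the platform annotation's symbol, updated through RefSeq gene identifiers (GRCm38.p6): 34945 had 1 symbol, 932 several and 9160 none, 34741 matched and 0 symbols changed. Each gene was represented by the single-symbol probe set that was brightest on average (log2) across the 4 arrays, out of 82 probe sets for the 42 collagen genes. Groups were taken from the labels, and no column was left over. The filter, the thresholds of 1.3-fold and 2-fold and the local spread are given where first used. No test was possible with 1 array per group.

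The members, gene lists and thresholds were chosen with earlier results of these data known. All collagen genes may be named. Of the other lists, up to 4 members past 1.3-fold between genotypes, or past 2-fold the same way in both genotypes in heads over bodies, were to be named. The other genes given as examples (such as Lox, Bgn, Pcolce, Fmod, Kera, Ddr1, Nid1, Nid2, Hspg2, Cnmd, Sox5, Hapln1, Myh8, Actc1, Alpl, Ibsp, Dmp1, Krt19, Krt8 and Epcam) were chosen after their values were seen. The alternatives were other scalings, filters, thresholds and probe set rules. The 1.3-fold count for heads over bodies with its alternatives, and the values of each other probe set, were added after seeing the data. Promoter sequences are those of RefSeq. Protein sequences were not analysed here. The counting was tested on simulated data. Computing used pandas 2.3.3 and numpy 2.4.6 in Python 3.11.15, with scipy 1.17.1, and matplotlib 3.10.9 for figures.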

Additional observations from a re-analysis of the deposited data

Results flagged for a closer look

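For 3 collagen genes the log2 difference between Hand2NC and wild-type embryos had opposite signs in E12.5 heads and E11.5 bodies, with a gap of at least 1.3-fold. Col24a1 was at -0.72 in heads and 0.23 in bodies, a gap of -0.94, which by construction is also the gap between its head over body difference in Hand2NC (-0.85) and in wild-type (0.10). Col7a1 was at -0.34 in heads and 0.14 in bodies, a gap of -0.48, and its head over body difference was -0.08 in Hand2NC and 0.40 in wild-type. Col22a1 was at -0.24 in heads and 0.23 in bodies, a gap of -0.47. None of these gaps was tested, since each value rests on 1 array against 1 array.

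Among the probe sets that were not used for a gene's value, 2 that passed the filter were at least 1.3-fold higher in Hand2NC than in wild-type samples. For Col22a1 in E12.5 heads the unused probe set gave a log2 difference of 0.46, Hand2NC over wild-type, and the one used gave -0.24. For Col9a3 in E11.5 bodies the unused probe set gave 0.51 and the one used 0.24. At least 1.3-fold lower, in heads, were unused probe sets of Col4a6 (-0.91) and Col5a1 (-0.57).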

How the results depend on the processing

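Each group is 1 array, so precision is limited by the number of arrays and, for genes near the array median, by dim signals, and no replicate could be left out. No paired analysis was possible because each group holds 1 array and the result comes from no test. Main counts at 1.3-fold were 0 genes higher and 0 lower in Hand2NC bodies and 1 higher and 2 lower in Hand2NC heads; in both genotypes 7 were higher and 1 lower in the head at 1.3-fold and 0 and 1 at 2-fold. With no filter, 3 were higher and 1 lower in Hand2NC bodies, 4 were higher in Hand2NC heads, and 2 were lower in the head at 2-fold and 2 at 1.3-fold. With the mean over probe sets, 1 was higher and 1 lower in Hand2NC bodies and 0 were lower in the head at 2-fold. With the second brightest probe set, which 27 genes have and 18 pass, 1 was higher in Hand2NC bodies, 0 higher and 1 lower in Hand2NC heads, and 4 higher in the head at 1.3-fold. With arrays centred on their median, and with quantile normalization, 1 was lower in Hand2NC heads and 2 were lower in the head at 1.3-fold. With both arrays at or above their median, 0 were lower in Hand2NC heads and 0 lower in the head at either threshold, and with the filter set at the 75th percentile 0 were higher and 0 lower in Hand2NC heads and 0 lower in the head at either threshold. With dim signals raised to the array median, 0 were lower in Hand2NC heads and 0 lower in the head at 2-fold. At 2-fold in place of 1.3-fold, 0 were higher and 0 lower in Hand2NC heads, at 4-fold 0 were lower in the head, and at 1.3-fold in place of 2-fold 7 were higher in the head. Reversed were Col25a1 (0.49 in wild-type, head over body, with the mean over probe sets) and Col4a6 (0.49 there with the second brightest probe set). The 30 single-gene values were each taken under several alternatives. Of these comparisons, 246 stayed within the local spread, 6 moved beyond it and 2 were reversed. A change of filter leaves a gene's value as it is, and using the unscaled signals hardly alters it. Many of the 246 could therefore not have moved, and their number is no measure of robustness. Median log2 differences over the collagen genes ranged between -0.09 and 0.02 in heads and between -0.09 and -0.01 in bodies for Hand2NC over wild-type, and between 0.11 and 0.21 in Hand2NC and 0.01 and 0.18 in wild-type for head over body. Causes of these changes were not tested.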

Other observations

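Other probe sets of the collagen genes that passed the filter gave the same sign as the one used in 19 of 22 cases for head over body in Hand2NC and in 20 of 22 in wild-type, with median gaps of 0.16 and 0.14 on the log2 scale. For Hand2NC over wild-type they gave the same sign in 13 of 22 cases in heads and in 16 of 21 in bodies, with median gaps of 0.16 and 0.11. The widest gap was that of Col4a6, 1.12 for Hand2NC over wild-type in heads. For Col1a1, whose probe set used gave -0.07 in heads, a second probe set had 866 in Hand2NC heads and 1076 in wild-type heads, a log2 difference of -0.31. For Col5a1, a dimmer probe set gave -0.57 in heads, while the other 2 gave 0.00 and 0.01.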
